A study of Homo sapiens with 6 samples.

Results

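Deletion, mutation or silencing of tumour suppressor genes is common in carcinoma, and 8 such genes, CDKN2A, CDKN2B, MTAP, RB1, SMAD4, ARID1A, APC and CTNNA1, are described here. They were taken by symbol from the 62700 genes of the deposited count table, where each symbol matched 1 identifier. The cells, according to the labels, were MKN-45, a line derived from human gastric adenocarcinoma, and poly(A) RNA was sequenced from 6 of them. In 3 control cultures the genotype label gives a negative-control shRNA, the treatment protocol a non-targeting siRNA, and the design text calls them untouched. In the other 3 cultures, labelled NNMT knockdown, NNMT was to be lowered by an shRNA or, in the treatment protocol, an siRNA. All were to be harvested 48 h after transfection, the labels call them independent biological replicates, and no clone or pooling is described.

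The CDKN2A locus encodes p16, which blocks the cyclin D kinases CDK4 and CDK6, and, from another first exon, ARF, which stabilises p53 by restraining MDM2. CDKN2B, its neighbour on chromosome 9p21, encodes the related kinase inhibitor p15. MTAP, on the other side of CDKN2A, encodes the first enzyme of methionine salvage. The 3 genes are often deleted together in carcinoma. RB1 encodes the pocket protein that holds back E2F factors, SMAD4 the shared partner of the TGF-beta and BMP SMADs, and ARID1A a subunit of the BAF chromatin remodelling complex. APC scaffolds the complex that marks beta-catenin for destruction. CTNNA1 encodes alpha-E-catenin, which links cadherin and beta-catenin to actin.

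Libraries held 40558680 to 56067484 gene-assigned reads. NNMT itself had 0, 8 and 12 reads in control replicates 1, 2 and 3 and 2, 8 and 14 reads in replicates 1, 2 and 3 labelled NNMT knockdown, so no lowering was detectable at this depth and the word "labelled" is kept. Of 5 epithelial markers, all had at least 5 reads per 1000000 gene-assigned reads (CPM) in every library. Of 15 gastric and intestinal markers, only 1 had at least 5 CPM in every library. In this list 9 lay below 1 CPM in every library, and GKN1 and CDX2 had 0 reads in all libraries. The summed level of those 15 was 40.2 to 132 CPM in controls and 45.4 to 122 CPM in labelled libraries. All 5 markers of white blood cells lay below 1 CPM, with sums of 0.161 to 0.385 and 0.253 to 0.518 CPM. Of 6 fibroblast markers, 3 passed 5 CPM in every library, with sums of 326 to 414 CPM in controls and 336 to 633 CPM in labelled libraries. Of 3 endothelial markers, PECAM1 did so, and the sums were 21.2 to 26.9 and 18 to 26.8 CPM. Most of the listed gastric and intestinal markers thus lay below 5 CPM in at least 1 library, although the labels name a gastric line. Neither the identity of the line nor the part of other cell types in the values below was tested.

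Each read count of a gene sums all of its transcripts. CDKN2A has 2 start sites in RefSeq, the farther one for ARF and the nearer one for p16, so its value cannot be divided between them. The 300 bases around the start, most of them upstream (RefSeq, GRCh38.p14, 5′ to 3′ on the gene's strand) are shown for these starts, for CDKN2B, the most abundant of the 8 genes per length, and for the farthest upstream listed start and an internal start of CTNNA1, the least abundant. Capitals mark CpG pairs. In the deposited annotation CTNNA1 begins at 138610967, so both of its windows lie inside the counted gene.
CDKN2A, farther start, minus strand, chr9:21995275-21995574: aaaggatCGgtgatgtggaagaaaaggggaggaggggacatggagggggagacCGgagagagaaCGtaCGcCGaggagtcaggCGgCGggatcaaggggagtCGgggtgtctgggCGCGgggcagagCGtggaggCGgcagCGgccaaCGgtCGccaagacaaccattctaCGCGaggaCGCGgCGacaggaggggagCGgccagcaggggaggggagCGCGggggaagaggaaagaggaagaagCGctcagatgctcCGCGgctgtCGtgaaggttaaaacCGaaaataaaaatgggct
CDKN2A, nearer start, minus strand, chr9:21974808-21975107: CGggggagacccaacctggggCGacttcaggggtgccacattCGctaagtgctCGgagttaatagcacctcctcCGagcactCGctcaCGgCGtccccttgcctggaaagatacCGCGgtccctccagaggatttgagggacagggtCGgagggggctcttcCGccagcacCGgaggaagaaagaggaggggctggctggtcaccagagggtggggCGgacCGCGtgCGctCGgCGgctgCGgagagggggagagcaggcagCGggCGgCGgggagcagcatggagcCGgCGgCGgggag
CDKN2B, minus strand, chr9:22009256-22009555: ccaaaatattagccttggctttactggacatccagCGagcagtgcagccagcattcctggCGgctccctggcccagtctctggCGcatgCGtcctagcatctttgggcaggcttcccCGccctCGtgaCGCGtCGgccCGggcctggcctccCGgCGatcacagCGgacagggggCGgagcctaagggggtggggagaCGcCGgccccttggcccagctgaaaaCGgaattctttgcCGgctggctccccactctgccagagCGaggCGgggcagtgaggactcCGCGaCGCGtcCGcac
CTNNA1, farthest upstream start, plus strand, chr5:138753175-138753474: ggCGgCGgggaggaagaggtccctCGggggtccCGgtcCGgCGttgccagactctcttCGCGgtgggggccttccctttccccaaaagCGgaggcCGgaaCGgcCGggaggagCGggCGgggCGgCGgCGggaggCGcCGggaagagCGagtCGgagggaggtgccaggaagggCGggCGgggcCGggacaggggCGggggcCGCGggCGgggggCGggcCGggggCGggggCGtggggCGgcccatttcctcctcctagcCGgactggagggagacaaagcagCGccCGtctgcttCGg
CTNNA1, internal start, plus strand, chr5:138875150-138875449: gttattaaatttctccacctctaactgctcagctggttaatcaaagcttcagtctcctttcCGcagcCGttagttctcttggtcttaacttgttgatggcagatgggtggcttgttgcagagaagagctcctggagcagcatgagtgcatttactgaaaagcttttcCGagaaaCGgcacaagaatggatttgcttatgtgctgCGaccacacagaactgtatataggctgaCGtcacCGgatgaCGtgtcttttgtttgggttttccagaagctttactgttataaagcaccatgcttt

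The CDKN2A windows held 28 and 26 CpG pairs and the CDKN2B window 25, against a median of 14 over 35116 RefSeq windows of 300 bases. The upstream CTNNA1 window held 37, more than 88.7% of all windows, and the internal one 8. The letters GGGCGG, the core of an SP1 motif, matched 9 times on both strands in the upstream CTNNA1 window and 0 times in the internal one, and 45% of all windows hold at least 1 match. These matches overlap the CpG pairs marked by capitals. Methylation was not measured, so the windows show the sequence at the starts and no more.

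CDKN2A and CDKN2B are paralogs and share exact stretches, which matters because reads that align to several places were not counted. No coding stretch of 150 bases, the read length, was common to both. Of the stretches of 30 bases over all coding transcripts, 8.84% of those in CDKN2A occur in CDKN2B and 14.8% of those in CDKN2B occur in CDKN2A. The longest coding run common to CDKN2A and CDKN2B was 80 bases. CTNNA1 shared at most 23 bases in a row with CTNNA2 and 20 with CTNNA3, and no stretch of 30 coding bases with either. Untranslated exons and other genes were not compared, so the loss of reads that align to several places was not tested.

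None of the 8 genes was near zero, taken as below 1 CPM in every library. CDKN2A, CDKN2B, MTAP, RB1, SMAD4, ARID1A and APC were expressed, with at least 5 CPM in every library. CTNNA1 was low, with 2.17 to 4.58 CPM. For comparison, 34.1% of 19831 protein-coding genes lay below 1 CPM in every library and 52.1% had at least 5 CPM in every library. A present RNA does not exclude a mutated or partly deleted gene, since gene-level counts carry no sequence. In these bulk samples, fewer cells expressing a gene and less RNA per cell cannot be told apart.

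Levels between genes were compared per length, as CPM divided by the kilobases of merged exons (RPKM). The mean over 6 libraries was 62.1 RPKM for CDKN2B, 22 for CDKN2A, 12.7 for ARID1A and 7.66 for RB1. It was 4.32 RPKM for SMAD4, 3.64 for MTAP, 2.38 for APC and 0.371 for CTNNA1. In this order the library ranges of neighbours did not overlap, except those of SMAD4 (3.86 to 4.76 RPKM) and MTAP (3.18 to 4.23 RPKM), whose order held in 5 of 6 libraries. The step from APC to CTNNA1 was the largest, 6.43-fold. Among 20250 tested genes, the mean of CDKN2B lay above 97.6%, that of APC above 49.7% and that of CTNNA1 above 19.4%. Among the 14132 tested genes that are protein-coding, these shares were 96.7%, 35.1% and 14.3%. Merged exon length is fixed by the annotation, from 3885 bases for CDKN2A to 19606 for SMAD4, and is the same in every library. The library ranges therefore leave out any uncertainty of length, although the order and the folds between genes depend on it. Without length the means were 248 CPM for CDKN2B, 203 for ARID1A, 85.6 for CDKN2A and 84.7 for SMAD4. They were 52.9 CPM for MTAP, 49.3 for RB1, 32.5 for APC and 3.28 for CTNNA1, so the middle of the order differed.

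**Figure D1:**
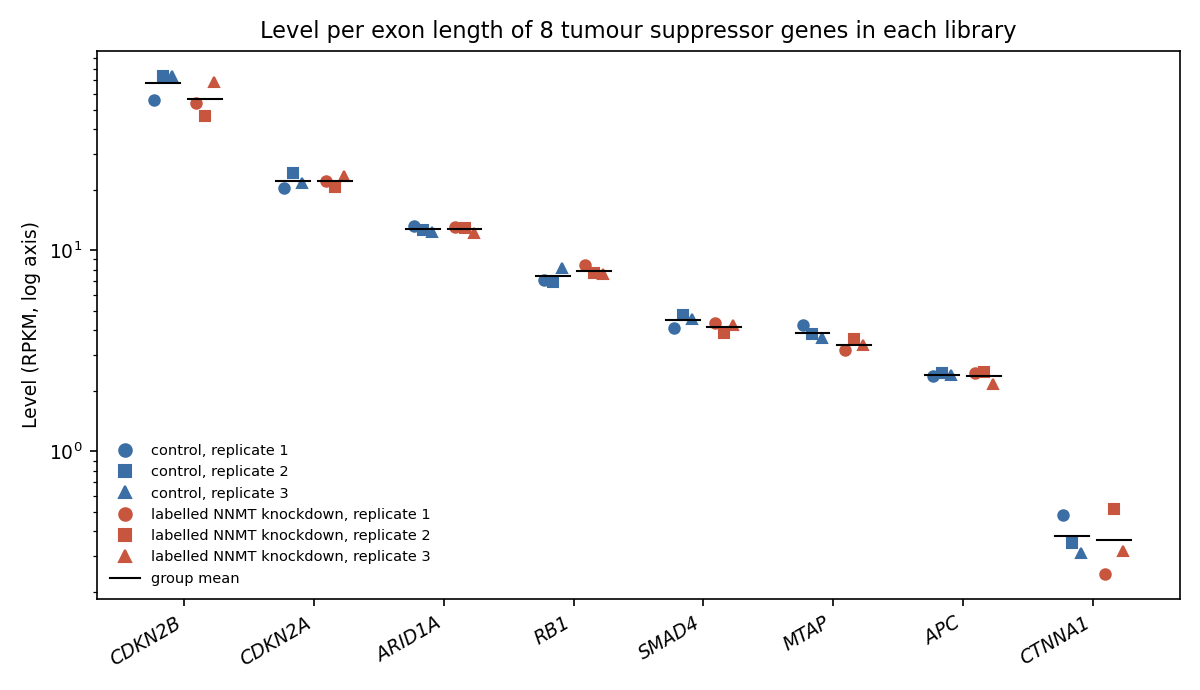
Level of the 8 genes in each library in RPKM on a log axis, ordered by mean; blue is control, red is labelled NNMT knockdown, symbols mark the replicate and bars the group means. CDKN2B is highest, CTNNA1 lies at or below 0.519 RPKM in every library, and red and blue points overlap for every gene but MTAP.

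Reads that fell on exons of several genes were not counted, which lowers a value where exons overlap. The share of exon bases also held by another gene was 15.3% for CDKN2A, all of it shared with the antisense RNA CDKN2B-AS1. The labels name a stranded library, but no strand option was set in counting, so sense and antisense reads cannot be told apart. It was 9.64% for MTAP, 5.89% for CTNNA1, 4.93% for SMAD4, 2.4% for ARID1A and 1.69% for APC, and 0 for CDKN2B and RB1. With unshared bases alone as the length, CTNNA1 reached 0.394 RPKM and CDKN2A 26 RPKM, so the order of these 2 among the 8 genes was as before.

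The comparison of libraries labelled NNMT knockdown with control asked whether any of the genes differed in level. In edgeR's quasi-likelihood test with Benjamini-Hochberg adjustment at 0.05, none of the 8 passed. Over all 20250 tested genes 0 passed, or 0%, and 817 genes, or 4.03%, had an unadjusted p under 0.05, among which were 0 of the 8. DESeq2 called 8 genes, or 0.0395%, also without any of the 8 described here, and limma-voom called 0. All 8 passed the filter on low counts. Of them 2 lay above 0 and 6 below, with a median log2 fold change of -0.05, against 50.8% above 0 and a median of 0.00333 over all tested genes. Without replicate 3 labelled knockdown, 4 of 8 lay above 0 with a median of -0.02, and without control replicate 3 it was 1 of 8.

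**Figure D2:**
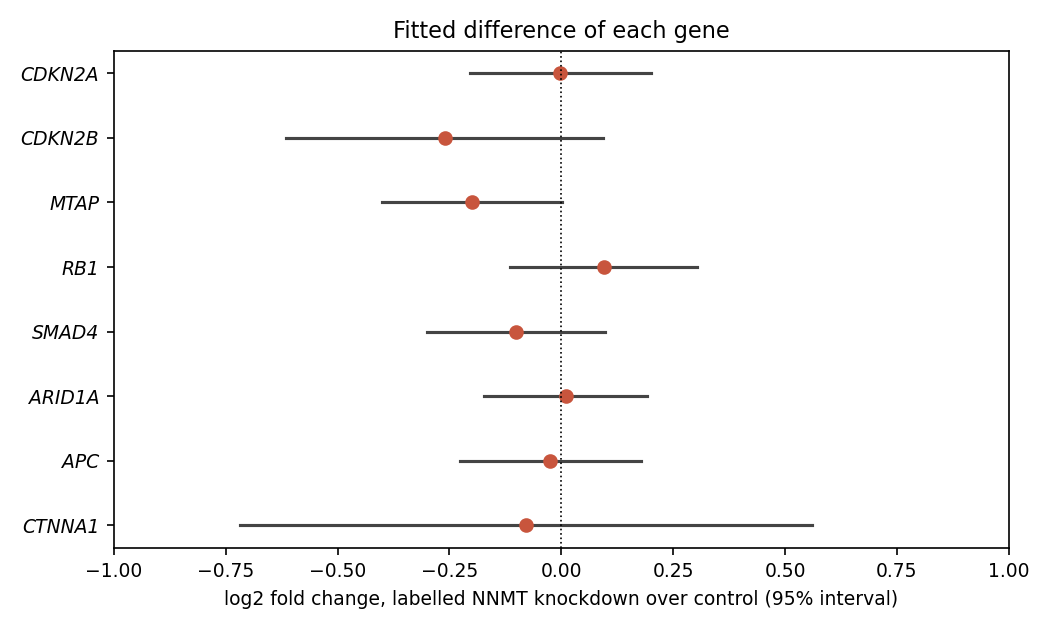
Fitted log2 fold change of each gene, labelled NNMT knockdown over control (points), with its 95% interval (lines). Every interval includes 0, and that of CTNNA1, from -0.72 to 0.56, is the widest.

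CDKN2A (ENSG00000147889.18, chromosome 9, 21967752 to 21995301 in hg38, minus strand) measured 79.6, 93.6 and 84.2 CPM in control replicates 1, 2 and 3. It measured 85.6, 79.9 and 91 CPM in replicates 1, 2 and 3 labelled NNMT knockdown. The lowest and the highest library were both controls, and the groups overlapped. The fitted log2 fold change was -0.00176 (SE 0.0914), and the fold had a 95% interval of 0.868 to 1.15. CDKN2B-AS1, the antisense RNA of the locus, lay between 11.1 and 13.4 CPM over the 6 libraries.

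CDKN2B (ENSG00000147883.12, chromosome 9, 22002903 to 22009305, minus strand) varied more between libraries than the other 6 expressed genes. Control replicates 1, 2 and 3 measured 224, 295 and 294 CPM, and the labelled replicates 1, 2 and 3 measured 217, 185 and 274 CPM. Its coefficient of variation over the 6 libraries was 18.5%, while the median of the 874 tested genes within 1.5-fold of its level was 7.67%. Control replicate 1 lay among the labelled libraries and labelled replicate 3 between the control values. It had a log2 fold change of -0.26 (SE 0.157), an interval of the fold from 0.653 to 1.07 (edgeR's quasi-likelihood test, adjusted p = 0.999). The estimate depended on single libraries of either group. It was -0.13 without replicate 2 labelled knockdown and -0.42 without replicate 3 labelled knockdown. Without control replicates 1, 2 and 3 it was -0.37, -0.19 and -0.21, and it was not past the threshold in any of these fits.

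Per length, CDKN2B exceeded CDKN2A in every library. The ratio was 2.74, 3.07 and 3.39 in control replicates 1, 2 and 3 and 2.46, 2.26 and 2.93 in the labelled replicates 1, 2 and 3. The mean ratio was 3.06 ± 0.329 in control and 2.55 ± 0.345 in the labelled libraries (SD, n = 3 each). The groups overlapped, and an exact two-sided permutation test gave p = 0.2, where 0.1 is the smallest p that 3 against 3 allow.

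MTAP (ENSG00000099810.21, chromosome 9, 21802636 to 21937651, plus strand) was the only one of the 8 whose groups did not overlap. Control replicates 1, 2 and 3 measured 61.4, 55.6 and 52.9 CPM, and the labelled replicates 1, 2 and 3 measured 46.1, 52.4 and 49.3 CPM. The lowest control and the highest labelled library were close, at 52.9 and 52.4 CPM. Among all tested genes, 4.88% lay wholly lower and 4.29% wholly higher in the labelled libraries, 9.17% in all. The fit gave a log2 fold change of -0.2 (SE 0.0915) and a fold interval from 0.757 to 1.002. With edgeR's quasi-likelihood test the unadjusted p was 0.0523 and the adjusted p 0.999. Without control replicate 1 it was -0.13.

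MTAP cleaves methylthioadenosine, a by-product of polyamine synthesis that inhibits the arginine methyltransferase PRMT5. All 15 listed genes of methionine salvage, polyamine synthesis and the PRMT5 complex were expressed. None passed the test in either direction, 11 lay above 0, and the median log2 fold change was 0.01. When replicate 2 labelled knockdown was left out, 7 of 15 lay above 0 with a median of -0.03, and without replicate 3 labelled knockdown the median was 0.08. The most abundant per length was the ornithine decarboxylase gene ODC1, at 303 RPKM. The lowest p belonged to MRI1, the next enzyme of the salvage pathway, with 57.3 ± 2.98 CPM in controls against 64.4 ± 5.86 CPM in labelled libraries (SD, n = 3 each), then MAT2B, with 63.1 ± 3.8 and 57.4 ± 0.178 CPM, and AMD1, with 177 ± 3.16 and 164 ± 5.37 CPM. PRMT5 measured 35.6 ± 3.08 and 35.8 ± 2.91 CPM, and 28.2% of its exon bases were shared with other genes.

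The stretch around CDKN2B was read gene by gene at the level of RNA. Deletion of any of these genes was not tested. Of the 8 nearest protein-coding genes on each side, 9 of 16 were expressed and 7 were near zero, with CDKN2B above all of them per length. The near-zero genes were the interferon genes IFNA1, IFNA8, IFNA2 and IFNA13, the sperm gene IZUMO3, LRRC19, and ENSG00000264545, whose exons lie wholly within other genes. IFNA1 shared 63.4% of its exon bases with other genes, so its level is uncertain. IFNE, another interferon gene, measured 6.25 to 8.97 CPM and DMRTA1, the next coding gene after CDKN2B, 6.63 to 13 CPM. All 9 expressed neighbours were tested and 0 passed, with 1 above 0 and a median log2 fold change of -0.13. MTAP and CDKN2A are among these 9. Farther out, TUSC1 averaged 7.46 RPKM and PLAA 7.44 RPKM. Of the 11 genes listed for the wider 9p21 region, 9 were tested, 5 lay above 0 and 0 passed. Their median log2 fold change of 0.01 turned to -0.03 without control replicate 1 and -0.06 without replicate 3 labelled knockdown. IFNA1, IFNB1 and HACD4 were near zero, and KLHL9, a ubiquitin ligase adaptor gene, was the most abundant per length, at 8.69 RPKM. The lowest p were those of the transcription elongation gene MLLT3 (11 ± 2.43 CPM in controls, 7.53 ± 0.339 CPM in labelled libraries) and the neuronal RNA-binding protein gene ELAVL2 (26.3 ± 2.68 and 20.2 ± 4.11 CPM; SD, n = 3 each), followed by DMRTA1.

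**Figure D3:**
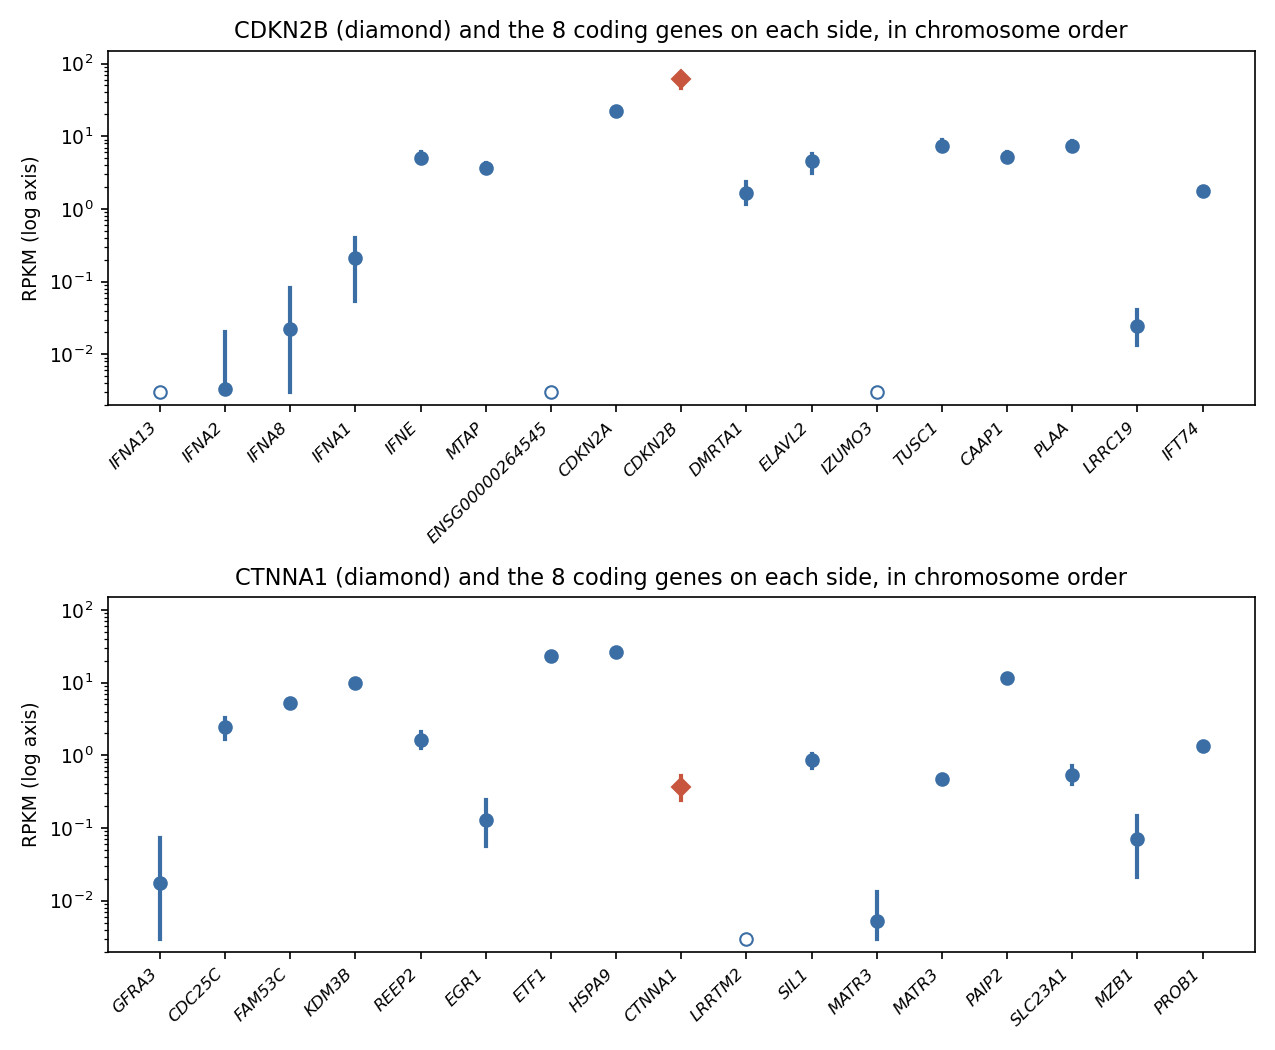
Mean level (points) and range over 6 libraries (lines) in RPKM on a log axis of CDKN2B (upper panel) and CTNNA1 (lower panel) and of the 8 protein-coding genes on each side, ordered by gene midpoint. Open circles at the lower end of the axis are genes with 0 reads or a mean below the axis; CDKN2B lies above its 16 neighbours, CTNNA1 below 11 of its 16.

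RB1 (ENSG00000139687.16, chromosome 13, 48303744 to 48599436, plus strand) measured 46, 44.5 and 52.7 CPM in control replicates 1, 2 and 3. It measured 54.1, 49.4 and 48.9 CPM in the labelled replicates 1, 2 and 3. Control replicate 3 lay above labelled replicates 2 and 3, so the groups overlapped. Its fitted change on the log2 scale was 0.09 (SE 0.0943), an interval of the fold from 0.924 to 1.23. Of the 16 nearest coding genes, 13 were expressed.

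The genes that act with RB1 were largely present. Of 27 cyclins, kinases, inhibitors, pocket proteins and E2F factors, 24 were expressed, and CCND2, a cyclin D gene, was near zero. CCND1, the other cyclin D gene named here, was the most abundant per length, at 123 RPKM (564 ± 46.3 CPM in controls, 606 ± 50.9 CPM in labelled libraries; SD, n = 3 each). Of 26 tested, 0 passed, 13 lay above 0 and the median log2 fold change was 0.01. This median was 0.08 without control replicate 1, -0.03 without control replicate 3 and -0.03 without replicate 2 labelled knockdown. CDK2 had the lowest p (33.6 ± 2.28 and 29.9 ± 2.08 CPM), then the ubiquitin ligase gene SKP2 (45.3 ± 3.41 and 50.6 ± 5.56 CPM) and the pocket protein gene RBL1 (24.4 ± 3.83 and 27.9 ± 4.84 CPM). The remaining INK4 inhibitors, CDKN2C and CDKN2D, measured 52 ± 6.05 and 57 ± 6.21 CPM, and 14.9 ± 2.96 and 16.7 ± 2 CPM (SD, n = 3 each).

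Targets of E2F at the start of S phase give a readout next to RB1. Of 15 such genes, all were expressed and 0 passed, while 14 lay above 0 and their median on the log2 scale was 0.08. Both values moved with single libraries of either group. Without replicate 2 labelled knockdown, 4 of 15 lay above 0 and the median was -0.03. All 15 lay above 0 without control replicate 1 (median 0.26) or without replicate 3 labelled knockdown (median 0.22). Without control replicate 2 it was 12 of 15 and without control replicate 3 it was 10 of 15, with a median of 0.03 each. The most abundant per length was the replication clamp gene PCNA, at 58.1 RPKM. TYMS, which shares 47.9% of its exon bases with other genes, had the lowest p (34.9 ± 4.28 and 39.4 ± 5.21 CPM). PCNA measured 77.4 ± 9.45 and 85.6 ± 16.1 CPM (SD, n = 3 each).

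SMAD4 (ENSG00000141646.16, chromosome 18, 51028528 to 51085045, plus strand) measured 80.5, 93.4 and 89.4 CPM in control replicates 1, 2 and 3. The labelled replicates 1, 2 and 3 measured 85.5, 75.6 and 83.5 CPM. Control replicate 1 lay below labelled replicates 1 and 3, and the groups overlapped. Labelled over control, the log2 fold change was -0.1 (SE 0.0904), an interval of the fold from 0.812 to 1.07.

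All 26 listed ligands, receptors, SMADs, inhibitors and targets of the TGF-beta and BMP pathways passed the filter, and 22 were expressed. None passed the test, 15 lay above 0, and the median log2 fold change was 0.02, and 14 to 17 lay above 0 with a median of 0.00807 to 0.05 when single libraries were left out. The receptor gene TGFBR1 had the lowest p, with 21.7 ± 0.583 CPM in controls against 25.9 ± 2.68 CPM in labelled libraries (SD, n = 3 each). The inhibitory SMAD gene SMAD7 followed, with 4.64 ± 0.409 and 7.03 ± 2.56 CPM, and SMAD9 with 2.63 ± 0.812 and 1.77 ± 0.303 CPM.

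ARID1A (ENSG00000117713.21, chromosome 1, 26693236 to 26782104, plus strand) was the steadiest of the 8 genes. It measured 211, 200.02 and 196 CPM in control replicates 1, 2 and 3 and 208, 207 and 195 CPM in the labelled replicates 1, 2 and 3. Its coefficient of variation over the 6 libraries was 3.24%, and the groups overlapped over nearly their whole range. The log2 fold change was 0.00962 (SE 0.0826), an interval of the fold from 0.887 to 1.14. Per length it reached 12.7 RPKM, above its alternative ARID1B, at 1.29 RPKM, and the PBAF subunit gene ARID2, at 2.68 RPKM.

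Of 26 further SWI/SNF subunit genes, 24 were expressed and ACTL6B, a subunit of neuronal complexes, was near zero. None of 25 tested passed, 13 lay above 0 and the median log2 fold change was 0.00205. With single libraries left out it lay between -0.00278 and 0.0325, below 0 without control replicate 3 or replicate 2 labelled knockdown. The core subunit gene SMARCD1 was the most abundant per length, at 30.7 RPKM. The lowest p were those of DPF3 (191.5 ± 20.8 CPM in controls, 240.3 ± 27.9 CPM in labelled libraries), DPF1 (4.54 ± 1.13 and 6.42 ± 0.778 CPM), both plant homeodomain finger subunits, and SMARCC1 (170 ± 22.3 and 142 ± 14.3 CPM; SD, n = 3 each).

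APC (ENSG00000134982.18, chromosome 5, 112707518 to 112846239, plus strand) measured 32.4, 33.2 and 32.8 CPM in control replicates 1, 2 and 3. The labelled replicates 1, 2 and 3 measured 33.3, 33.7 and 29.6 CPM. Labelled replicate 3 was the lowest library and the other labelled libraries the highest, so the groups overlapped. The log2 fold change was -0.02 (SE 0.0913), an interval of the fold from 0.855 to 1.13. Its paralog APC2 measured 4.74 to 6.28 CPM.

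Of 19 listed partners of APC and beta-catenin targets, 12 were expressed, and the targets NKD1 and NOTUM were near zero. None of 17 tested passed, 6 lay above 0 and the median log2 fold change was -0.03. When replicate 2 labelled knockdown was left out, 10 of 17 lay above 0 with a median of 0.02, without control replicate 2 the median was -0.00188 and without control replicate 3 it was -0.08. The WNT antagonist gene DKK1 was the most abundant per length, at 299.6 RPKM, and AXIN2, a common readout of beta-catenin activity, measured 8.06 ± 1.1 and 8.33 ± 0.0950 CPM (SD, n = 3 each). The lowest p were those of RNF43 (1.96 ± 0.665 and 1.27 ± 0.713 CPM), CTNNB1 (256 ± 15.8 and 233 ± 21.6 CPM) and ZNRF3 (14.9 ± 0.594 and 13.4 ± 1.69 CPM; SD, n = 3 each). RNF43 shared 69% of its exon bases with other genes.

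**Figure D4:**
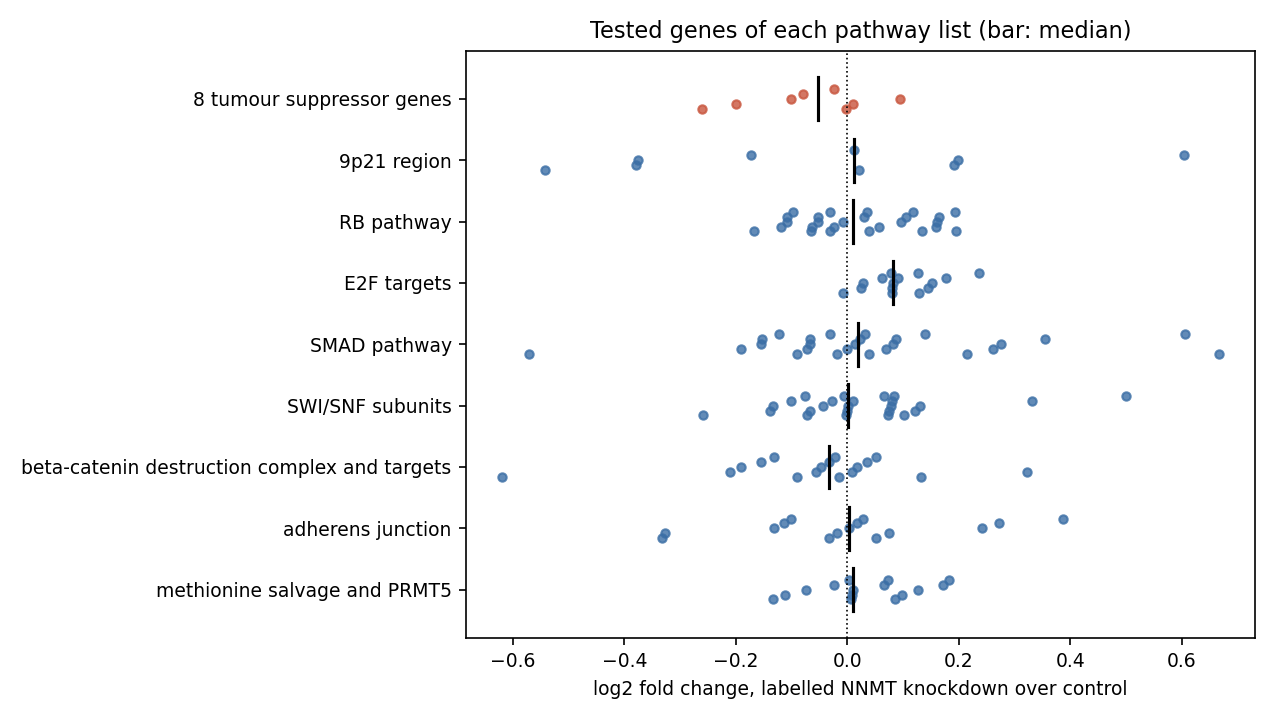
Fitted log2 fold change of the tested genes of each list, labelled NNMT knockdown over control; points are genes, bars are medians, and the 8 tumour suppressor genes are in red. Points lie on either side of 0 in every list.

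CTNNA1 (ENSG00000044115.21, chromosome 5, 138610967 to 138935034, plus strand) had few reads in every library. Control replicates 1, 2 and 3 held 177, 149 and 154 reads, or 4.26, 3.09 and 2.75 CPM. The labelled replicates 1, 2 and 3 held 88, 208 and 122 reads, or 2.17, 4.58 and 2.81 CPM. The labelled libraries held both the lowest and the highest value, and the groups overlapped. Its coefficient of variation over the 6 libraries was 28.7%, against a median of 19.3% for the 1744 tested genes within 1.5-fold of its level. The log2 fold change was -0.08 (SE 0.289), an interval of the fold from 0.608 to 1.47, and its sign changed when control replicate 1 (0.14), labelled replicate 1 (0.12) or labelled replicate 3 (0.0016) was left out.

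On the length scale CTNNA1 lay between 0.246 and 0.519 RPKM and was below 1 RPKM in every library, as were 43.4% of protein-coding genes. The junction genes around it were present. Beta-catenin (CTNNB1), which alpha-catenin binds, averaged 20.8 RPKM, 56-fold above CTNNA1, and plakoglobin (JUP) 14.7 RPKM. The actin linker vinculin (VCL), a partner of alpha-catenin, averaged 100.4 RPKM. E-cadherin (CDH1) averaged 5.89 RPKM and N-cadherin (CDH2) 7.75 RPKM. CTNND1, the p120-catenin gene, averaged 1.82 RPKM, with 39.1% of its exon bases shared with other genes. P-cadherin (CDH3), at 0.436 to 0.907 RPKM, was the neighbour in this order and its range overlapped that of CTNNA1.

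The paralogs of CTNNA1 differed. CTNNA2, the neuronal alpha-catenin gene, was near zero, at 0 to 0.0331 RPKM. CTNNA3, the gene of alpha-T-catenin, known from heart muscle, lay between 1.14 and 1.66 RPKM, 3.64-fold above CTNNA1 on average and above it in all 6 libraries, with 1.08% of its exon bases shared. The alpha-catenin-like gene CTNNAL1 averaged 18.4 RPKM. CTNNA3 measured 23 ± 4.29 CPM in controls against 21.4 ± 0.485 CPM in labelled libraries, and CTNNAL1 52.6 ± 6.98 and 62.1 ± 14.8 CPM (SD, n = 3 each).

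**Figure D5:**
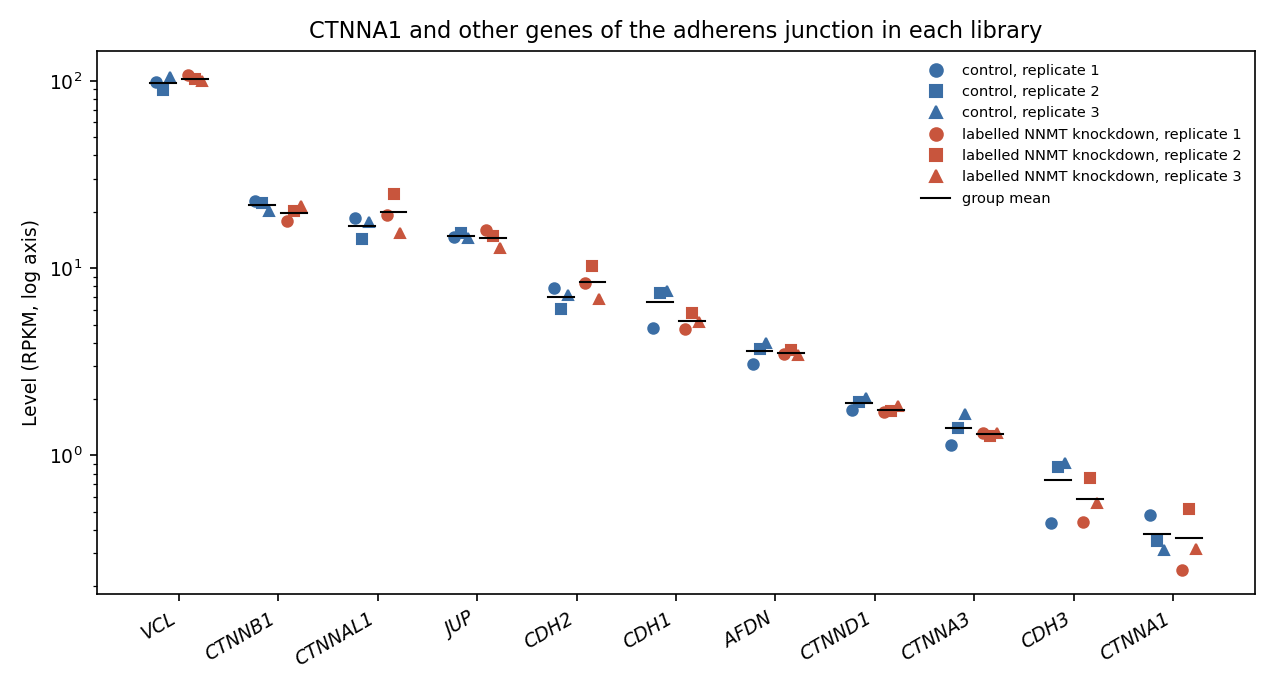
Level in each library of CTNNA1 and of 10 other genes of cadherin junctions, in RPKM on a log axis; blue is control, red is labelled NNMT knockdown, symbols mark the replicate and bars the group means. CTNNA1, at 0.371 RPKM on average, lies lowest of the genes drawn and its range overlaps that of CDH3; CTNNA2, which was near zero, is not drawn.

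Of the 16 listed junction genes, 14 were expressed, 15 were tested and 0 passed, with 8 above 0 and a median difference on the log2 scale of 0.00319. Without replicate 1 labelled knockdown 4 of 15 lay above 0 (median -0.06), without control replicate 1 it was 5 of 15 (-0.08), and without control replicate 3 it was 10 of 15 (0.05). The lowest p were those of the nectin gene NECTIN1 (53.4 ± 5.06 CPM in controls, 69.6 ± 12 CPM in labelled libraries), CDH1 (39.9 ± 9.48 and 31.7 ± 3.19 CPM) and CDH2 (60.2 ± 7.65 and 72.7 ± 14.6 CPM; SD, n = 3 each).

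The neighbours of CTNNA1 on chromosome 5 were read in the same way as those of CDKN2B. On the side of lower coordinates, HSPA9, a mitochondrial chaperone gene 35.3 kb away, averaged 26.1 RPKM and ETF1, a translation release factor gene, 23.1 RPKM. On the other side SIL1, a chaperone cofactor gene 11.7 kb away, averaged 0.874 RPKM and PAIP2, farther out, 11.8 RPKM. LRRTM2, which lies within CTNNA1 on the opposite strand, had 0 reads in every library. The gene MATR3 has 2 identifiers there, at 0.00532 and 0.472 RPKM, with 92.4% and 42.6% of their exon bases shared with other genes, so these levels are uncertain. Of the 16 neighbours 7 were expressed, 4 were low and 5 were near zero, and 11 lay above CTNNA1 per length. Of the 12 tested, 0 passed, with 6 above 0 and a median log2 fold change of -0.03.

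For each of the 7 expressed genes, the genes with the most similar course over the 6 libraries were found by the root mean square difference of mean-centred log2 CPM among 20250 tested genes. The closest were ABCA7 and CNNM2 for CDKN2A, LAMB2P1 and RIMKLA for CDKN2B, and CDK2 and ZNF747 for MTAP. They were ASCC3 and ZNF532 for RB1, LARP4B and SLC35A3 for SMAD4, RPL22 and VPS26A for ARID1A, and TCEAL1 and CTNNBL1 for APC. The differences ran from 0.0103 for RPL22 to 0.0605 for RIMKLA. With 6 libraries and this many genes close matches arise in any case, so the names only describe these libraries.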

How the data were processed

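The authors deposited raw read counts per gene for the 6 libraries. They were made with featureCounts 2.0.6 on alignments to hg38 with GENCODE 44, per the file headers; which aligner made them is not stated there. The command kept pairs with both ends mapped, dropped chimeric pairs and counted neither multi-mapping reads nor reads on several genes, set no strand option and did not count pairs as 1 fragment, so mates were counted singly (73.4% to 76.7% of counts from 2 to 10 were even). All 62700 genes matched a symbol; gene types came from GENCODE 29, promoters from RefSeq (GRCh38.p14).

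CPM and RPKM were computed here from library totals and merged exon lengths. filterByExpr kept 20250 genes, TMM scaled them, and the quasi-likelihood test of edgeR 4.0.16 (in R 4.3.3) compared the groups with no covariate; p-values were adjusted by Benjamini-Hochberg. DESeq2 1.42.0, limma-voom (limma 3.58.1), other scalings and filters, halved counts, a replicate block and leaving out each library were alternatives. Over 15 pairs of libraries the chi-square per gene was 12 to 44, so none was a duplicate deposit. Both ends of this range were pairs across the groups, control replicate 3 with labelled replicates 3 (lowest) and 2 (highest). The lowest value within a group was 22.8, for control replicates 1 and 2. The genes and lists were chosen with earlier results of these data known. Named besides the 8 genes were NNMT, per list the 3 genes with the lowest p, the most abundant per length and those near zero, flanking genes and paralogs, and the 2 genes with the most similar course; ARID1B, ARID2, PRMT5, AXIN2, CDKN2B-AS1, APC2 and the junction genes were named outside that rule. Some genes that the rule names, and a sequence, are not reported here.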

Additional observations from a re-analysis of the deposited data

How the results depend on the processing

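The 8 genes had 112 of 120 alternative log2 fold changes in the same direction and on the same side of the threshold, and 0 passed it under any alternative run. The other 8 changed sign, all when a library was left out. Alternatives that kept all 6 libraries refit the same cultures, so their agreement says little about how far the estimates would repeat. Ranges over the left-out libraries were -0.0487 to 0.0647 for CDKN2A, -0.425 to -0.131 for CDKN2B, -0.257 to -0.128 for MTAP, 0.0301 to 0.159 for RB1, -0.152 to -0.0413 for SMAD4, -0.0233 to 0.0495 for ARID1A, -0.0655 to 0.0323 for APC and -0.422 to 0.135 for CTNNA1. The count of all called genes was 8 with DESeq2, 72 with no filter on low counts and 0 to 1 when a library was left out, against 0; the cause was not tested. With 1 RPKM as the threshold in place of 1 CPM, 1 gene, CTNNA1, was near zero. Same-numbered libraries had correlations of deviations of 0.0545, -0.0705 and 0.18, and differently numbered ones lay between -0.2 and 0.13. With 3 libraries per group these values cannot settle whether the numbers pair the libraries. With the replicate block 0 genes passed. CTNNA1 had at most 208 reads in a library, which limits the precision of its fold change. The design of 3 against 3 allows no exact p below 0.1.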
